A study of Mus musculus with 4 samples.

Results

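The genes described here encode the MORC ATPases (*Morc1*, *Morc2a*, *Morc2b*, *Morc3* and *Morc4*), the corepressor TRIM28 (*Trim28*) and the heterochromatin proteins HP1β and HP1α (*Cbx1* and *Cbx5*). They were taken by name, and all 8 were found among the 24411 gene rows of each library. Their RNA was measured in GFP-positive male germ cells sorted from testes at postnatal day 18, in 2 control *Zfp541*+/- libraries and 2 libraries labelled *Zfp541* KO. All 4 testes carried *Rec8-3xFLAG-HA-p2A-GFP*, a knocked-in allele that adds a tag and GFP to REC8, a cohesin subunit of meiotic prophase, and the labels give the strain as a mix of C57BL/6 and CBA. One control testis was heterozygous for this allele while the other control and both KO-labelled testes were homozygous, and the labels do not say which control is which. ZFP541 is a germ cell zinc finger protein that appears in pachytene spermatocytes, and the KO allele was made with CRISPR/Cas9 in fertilized C57BL/6 eggs by deleting a run of exons from the first one on. The comparison asks how loss of this repressor changes the RNA of meiotic prophase cells. Nothing in the labels ties the replicates to separate mice beyond separate testes, so the spread between libraries is that between these samples.

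MORC proteins are ATPases of the GHKL fold that bind DNA and compact chromatin. MORC1 is known for silencing transposons in the male germ line, MORC2A works with the HUSH complex, MORC2B is needed for meiosis, and MORC3 binds SUMO and sits in PML bodies. TRIM28 is brought to DNA by KRAB zinc finger proteins and in turn brings SETDB1, which methylates histone H3 at lysine 9 (H3K9). HP1 proteins bind that methylated lysine through a chromodomain and hold other silencing factors there.

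*Morc2a* and *Morc2b* are close paralogues, so the sequences were compared first to see whether reads could be assigned to each. *Morc2a* (ENSMUSG00000034543) lies on chromosome 11 of GRCm38, the assembly UCSC calls mm10, from 3649191 to 3690477 on the forward strand, and its longest coding transcript has 26 exons. *Morc2b* (ENSMUSG00000048602) lies on chromosome 17 from 33113351 to 33139683 on the reverse strand, and its coding sequence is in 1 exon. Over 3058 aligned bases the coding sequences were identical at 80.2%, and the longest identical run was 38 bases, shorter than the 75 nt reads. The pair below is the stretch of 75 coding bases where they are most alike, in exon 13 of *Morc2a* (chr11:3679720-3679794, forward strand) and in the coding exon of *Morc2b* (chr17:33137585-33137659, reverse strand). Capitals mark the bases that differ, 3 of 75.
Morc2a: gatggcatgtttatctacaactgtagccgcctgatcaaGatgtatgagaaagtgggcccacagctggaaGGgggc
Morc2b: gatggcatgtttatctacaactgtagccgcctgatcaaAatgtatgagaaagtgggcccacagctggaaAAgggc
Here and for the other genes below, 1 transcript per gene was searched, the one with the longest coding sequence. Sequence found only in other transcripts of the gene was not checked. No 75-base stretch of the *Morc2b* transcript occurred in a transcript of another gene, and none of *Morc2a* occurred in *Morc2b*. In *Morc2a*, 7.33% of the 75-base stretches also lay in *Tug1*, a noncoding RNA on the opposite strand whose exons share 483 bases with those of *Morc2a* (chr11:3649191-3649673). Without strand information, reads from that stretch cannot be told apart.

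**Figure D1:**
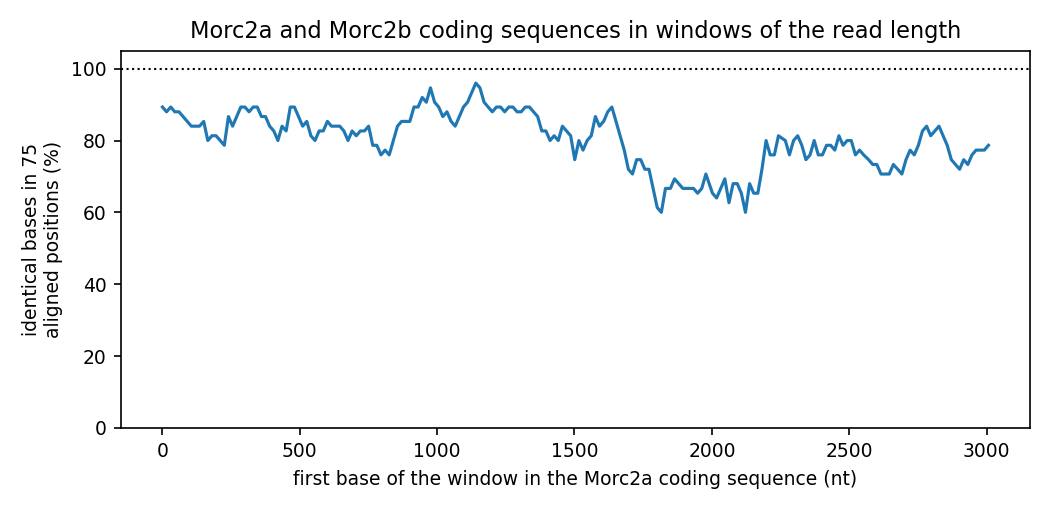
Percent of identical bases between the aligned coding sequences of *Morc2a* and *Morc2b* in windows of 75 aligned positions, against the first base of the window in the *Morc2a* coding sequence. The line stays below the dotted line at 100%, and its highest window reaches 96.0%.

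HP1β and HP1α are the other closely related pair. *Cbx1* (ENSMUSG00000018666) lies on chromosome 11 from 96789127 to 96808640 on the forward strand, and *Cbx5* (ENSMUSG00000009575) on chromosome 15 from 103191544 to 103239816 on the reverse strand. Their coding sequences were identical at 74.3% of 526 aligned bases, and the longest identical run was 20 bases. The stretch of 75 coding bases where they are most alike is shown because it is the place where reads of the 2 genes could most easily be confused. It runs over a splice junction in both genes (chr11:96802806-96806673 in exons 4 and 5 of *Cbx1*, and chr15:103199734-103200817 in exons 5 and 6 of *Cbx5*), and capitals again mark the bases that differ, 14 of 75.
Cbx1: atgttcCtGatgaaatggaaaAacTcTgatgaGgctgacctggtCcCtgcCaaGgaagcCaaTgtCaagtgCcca
Cbx5: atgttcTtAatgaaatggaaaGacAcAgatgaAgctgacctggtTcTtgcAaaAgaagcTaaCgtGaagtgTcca
No 75-base stretch of either transcript occurred in a transcript of another gene, and the same was true of *Morc1* (ENSMUSG00000022652, chromosome 16, 48431237 to 48630900, forward strand), *Morc3* (ENSMUSG00000039456, chromosome 16, 93832121 to 93876073, forward strand), *Morc4* (ENSMUSG00000031434, chromosome X, 139821632 to 139871677, reverse strand) and *Trim28* (ENSMUSG00000005566, chromosome 7, 12999114 to 13031035, forward strand).

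Several facts of the 4 libraries bear on every value that follows. *Zfp541* itself measured 112 and 72.2 TPM in controls 1 and 2, against 136 and 151 TPM in the KO-labelled libraries, so its RNA was not lower under the KO label. The log2 fold change was 0.67, with a standard error of 0.28, which is the error written after ± for fold changes (adjusted p = 0.371 by limma). Genotype is therefore taken from the labels. TPM, transcripts scaled to a fixed total per library, is a level per transcript length that keeps no sequencing depth. Control 2 was low over the genes tested, with a median of 16.2 TPM. The median was 23.8 TPM in control 1, and 24.3 and 24.2 TPM under the KO label. The sorted cells were rich in meiotic RNA, with *Sycp3* at 1108 to 2196 TPM. *Rec8*, which the GFP follows, was at 7.05 TPM in control 1, 27.9 in control 2, and 27.7 and 19.4 under the KO label. Markers of other cells differed widely between the controls. The 6 macrophage markers summed to 22.5 TPM in control 2 against 1856 in control 1 and 1661 and 1243 in the KO-labelled pair, and the 6 Leydig cell markers to 18.0 against 2910, 332 and 504 TPM. The 8 Sertoli cell markers summed to 1179 TPM in control 2, 524 in control 1, and 1013 and 866 under the KO label. Markers of meiotic stage moved with genotype. All 10 leptotene and zygotene markers were higher in both KO-labelled libraries than in both controls (sums of 507 and 760 TPM in the controls, 1183 and 1126 under the KO label), and of 10 pachytene markers 5 were lower and 1 higher in both (sums of 7351 and 3489 TPM against 2189 and 3176). Over all genes 38.6% were higher and 12.1% lower in both. Euclidean distances over all genes tested, on log2(TPM + 1), were 153 between the controls and 49.2 between the KO-labelled libraries. Between a control and a KO-labelled library they were 111 to 133, so the controls were farther from each other than from either KO-labelled library. Fewer cells of a type and less RNA per cell cannot be told apart in such bulk RNA, and the part of cell mixture in the results below was not tested.

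*Cbx1* and *Morc2a* had the largest differences among the 8 genes, both toward higher RNA in the KO-labelled pair. For *Trim28*, the most abundant, both KO-labelled libraries lay between the controls in TPM, but below both with median-ratio scaling of the libraries. None of the 8 passed an FDR of 0.05 in limma on log2(TPM + 1), as none of all 14512 genes tested did (0%). At an unadjusted p under 0.05, 2 of the 8 were higher and 0 lower, where 10.7% of all genes were higher and 3.73% lower. In 3 of the 8 (*Morc2a*, *Morc4* and *Cbx1*) both KO-labelled libraries lay above both controls, and in 0 both lay below, against 38.6% and 12.1% of all genes. With 8 genes, these counts are not read as particular to them. The median log2 fold change over all genes tested was 0.28, and -0.01 with median-ratio scaling of the libraries, so the difference of each of the 8 genes is also given relative to it.

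**Figure D2:**
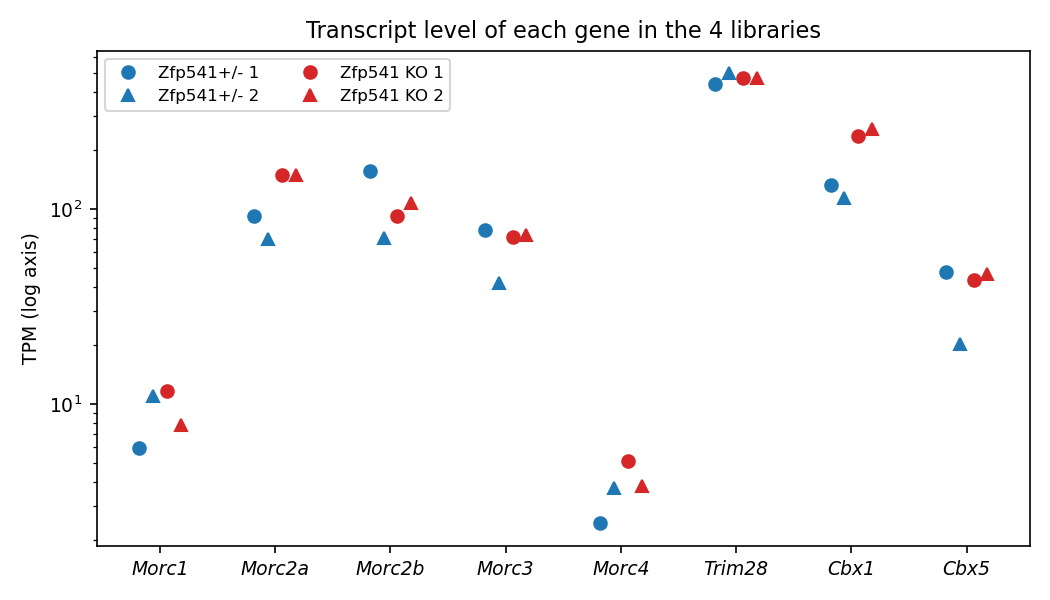
TPM on a log axis for each of the 8 genes in each of the 4 libraries (blue, *Zfp541*+/-; red, labelled *Zfp541* KO; circles, replicate 1; triangles, replicate 2). The 2 red points of *Cbx1* (236 and 256 TPM) and of *Morc2a* (149 and 149 TPM) lie above both blue points. Control 2 is the lowest point of *Morc2a*, *Morc2b*, *Morc3*, *Cbx1* and *Cbx5*.

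Among the MORC genes, *Morc2a* measured 91.7 and 70.1 TPM in controls 1 and 2, against 149 and 149 TPM in KO-labelled libraries 1 and 2. The groups did not overlap, and the KO-labelled libraries were almost equal. Its log2 fold change was 0.88 ± 0.21 (unadjusted p = 0.0125 and adjusted p = 0.310 by limma), 0.60 above the median of all genes. It was 1.07 without control 1 and 0.69 without control 2. After correction of each library for transcript length it was 0.37, where the median of all genes was 0.015. It then no longer passed the unadjusted threshold (unadjusted p = 0.0978 and adjusted p = 0.559 by limma). *Tug1*, whose exons overlap the first exon region of *Morc2a*, measured 48.6 and 32.4 TPM in controls 1 and 2, against 60.7 and 62.6 TPM in KO-labelled libraries 1 and 2, and its part in the *Morc2a* value was not tested.

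*Morc2b*, the paralogue that carries its coding sequence in a single exon, measured 157 and 70.8 TPM in controls 1 and 2, against 92.4 and 107 TPM in KO-labelled libraries 1 and 2. Both KO-labelled values lay between the controls, which were far apart. The log2 fold change was -0.08 ± 0.43 (limma adjusted p = 0.940), 0.37 below the median of all genes, and its sign depended on the control, at 0.49 without control 1 and -0.66 without control 2. A ratio of levels within a library needs no scaling between libraries, and the gene pairs whose ratios are given here were chosen after the values were seen. *Morc2b* was at 1.72 and 1.01 times *Morc2a* in the controls and at 0.62 and 0.72 times in the KO-labelled pair. The groups did not overlap (difference of -0.98 in the log2 ratio, exact permutation p = 0.333, two-sided, the smallest that 2 against 2 libraries allow). The paralogue with the higher level was thus *Morc2b* in control 1 and *Morc2a* in both KO-labelled libraries, and in control 2 they were about equal. Summed into 1 value, the paralogues stood at 249 and 141 TPM in the controls, against 241 and 256 TPM under the KO label (0.41 on the log2 scale, limma adjusted p = 0.588).

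**Figure D3:**
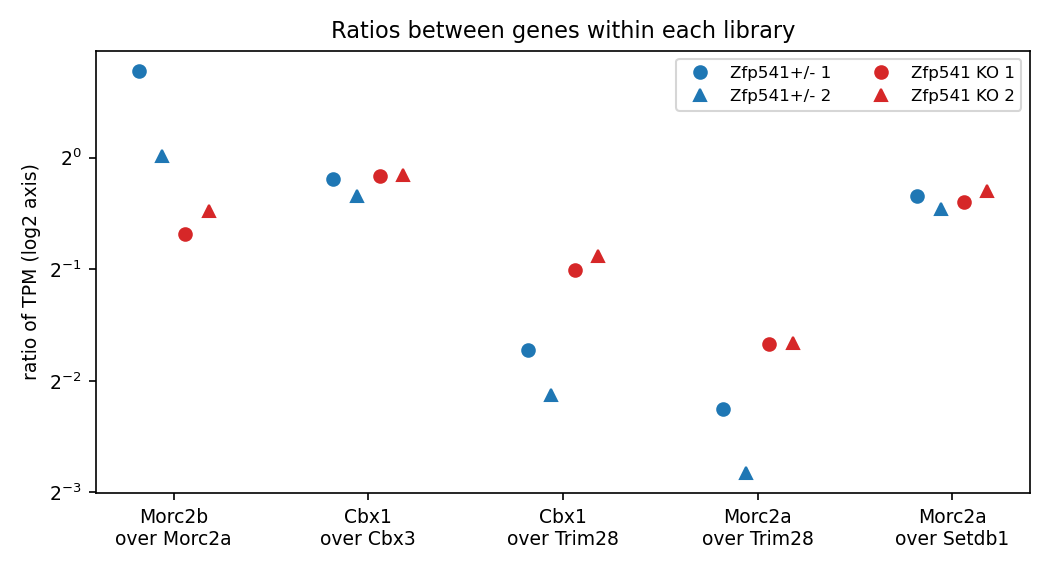
Ratio of the TPM of 2 genes within each library, on a log2 axis, for 5 gene pairs (blue, *Zfp541*+/-; red, labelled *Zfp541* KO; circles, replicate 1; triangles, replicate 2). *Morc2b* over *Morc2a* is lower in both red points (0.62 and 0.72) than in both blue points (1.72 and 1.01), while *Morc2a* over *Setdb1* is between 0.73 and 0.81 in all 4 libraries.

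*Morc3*, the SUMO-binding member, measured 77.8 and 41.6 TPM in controls 1 and 2, against 72.0 and 73.8 TPM in KO-labelled libraries 1 and 2. Control 2 alone was low, and control 1 was the highest of the 4. The log2 fold change of 0.35 ± 0.35 (limma adjusted p = 0.657) was 0.07 above the median of all genes and rested on control 2, without which it was -0.09. *Morc1*, the member known from germline transposon silencing, measured 5.98 and 11.0 TPM in controls 1 and 2, against 11.7 and 7.81 TPM in KO-labelled libraries 1 and 2, with overlapping groups and a log2 fold change of 0.21 ± 0.46 (limma adjusted p = 0.847). That was 0.07 below the median of all genes. It was 0.60 without control 2, and its sign turned to -0.18 without control 1 and to -0.10 with median-ratio scaling. *Morc4*, the only X-linked gene of the 8, was the lowest, at 2.45 and 3.69 TPM in the controls, against 5.10 and 3.81 TPM under the KO label. Its groups did not overlap, but control 2 and library 2 of the KO label were only 0.04 apart on the log2 scale. The log2 fold change was 0.43 ± 0.42 (limma adjusted p = 0.645), 0.15 above the median of all genes, and 0.21 without control 1 and 0.65 without control 2.

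*Trim28* measured 437 and 497 TPM in controls 1 and 2, against 472 and 472 TPM in KO-labelled libraries 1 and 2. Both KO-labelled values lay between the controls. With median-ratio scaling of the libraries they lay below both. The control mean was 467 ± 42.3 TPM and the KO-labelled mean 472 ± 0.24 TPM (SD, n = 2 each), and the log2 fold change was 0.02 ± 0.20 (limma adjusted p = 0.977). Relative to the median of all genes it was lower by 0.27, and median-ratio scaling and the length correction put it at -0.32 and -0.26. It was -0.08 without control 1 and 0.11 without control 2. Its mean level was above that of 97.9% of the genes tested.

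Of the HP1 genes, *Cbx1* measured 132 and 114 TPM in controls 1 and 2, against 236 and 256 TPM in KO-labelled libraries 1 and 2. The groups were well apart, with means of 123 ± 13.0 TPM and 246 ± 14.4 TPM (SD, n = 2 each). The log2 fold change was 1.00 ± 0.19 (unadjusted p = 0.00507 and adjusted p = 0.310 by limma), 0.71 above the median of all genes. It was 1.10 without control 1 and 0.89 without control 2. It was 0.84 after the length correction and 0.66 with median-ratio scaling. *Cbx5* measured 47.8 and 20.3 TPM in controls 1 and 2, against 43.3 and 46.7 TPM in KO-labelled libraries 1 and 2. Control 2 was again the low library, and the other 3 lay close together. The log2 fold change of 0.51 ± 0.46 (limma adjusted p = 0.619) was 0.23 above the median of all genes, and 1.11 without control 1 and -0.09 without control 2. The macrophage markers, lowest in control 2, moved with these low values of *Morc3* and *Cbx5*. The Leydig cell markers were also lowest in control 2, but far higher in control 1 than under the KO label, unlike the 2 genes. Control 2 was also the lowest library in the median over all genes tested, at 16.2 TPM. After the length correction the log2 fold changes of *Morc3* and *Cbx5* were -0.02 and -0.17. The part of these markers was not tested.

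**Figure D4:**
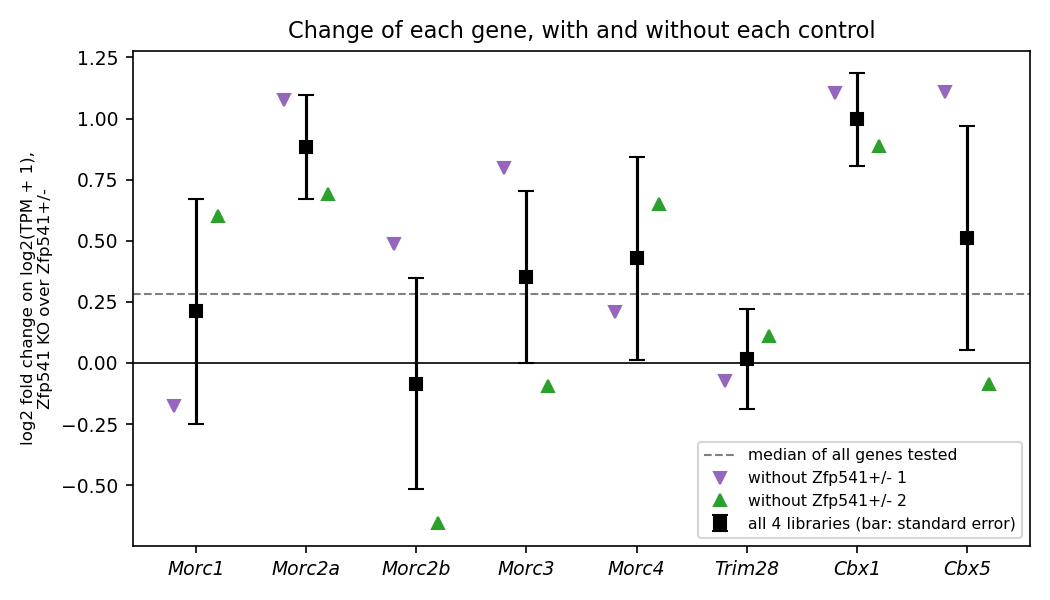
log2 fold change, KO-labelled libraries over *Zfp541*+/-, of each of the 8 genes on the log2(TPM + 1) scale, with all 4 libraries (black squares, bars are standard errors from limma) and without control 1 (purple) or control 2 (green). The dashed line is the median of all genes tested, 0.28. *Cbx1* and *Morc2a* stay above it with either control left out, while the sign of *Morc1*, *Morc2b*, *Morc3*, *Trim28* and *Cbx5* depends on which control is left out.

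The order of the levels, which TPM allows to be set between genes, was *Trim28*, *Cbx1*, *Morc2b*, *Morc2a*, *Morc3*, *Cbx5*, *Morc1* and *Morc4* in the controls. In 4 of the 7 neighbouring pairs, from *Cbx1* down to *Cbx5*, the control values overlapped, so that order is not beyond their spread. In the KO-labelled libraries the order was the same except that *Morc2a* stood above *Morc2b*, and none (0 of 7) of the neighbouring pairs overlapped. *Cbx1* stood at 0.30 and 0.23 times *Trim28* in the controls and 0.50 and 0.54 times under the KO label, with no overlap (exact permutation p = 0.333, two-sided).

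The partners of these proteins were counted from lists, in which none of the 45 genes tested passed an FDR of 0.05 in limma, 14 were higher and 0 lower at an unadjusted p under 0.05, and 32 were higher and 1 lower in both KO-labelled libraries than in both controls. Over all genes the shares were 10.7% and 3.73% at that p, and 38.6% and 12.1% for libraries that did not overlap. Their median log2 fold change was 0.60 against 0.28 for all genes, 0.31 against -0.01 with median-ratio scaling, and 0.26 against 0.015 after the length correction. It was 0.72 against 0.44 for all genes without control 1, and 0.40 against 0.15 without control 2. This is a description, and the lists were drawn up with earlier results of these data known.

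In the HUSH and SETDB1 list, 5 of 6 genes were higher in both KO-labelled libraries (all genes, 38.6%) and 2 of 6 were higher at an unadjusted p under 0.05 (all genes, 10.7%). The median was 0.86, 0.43 without control 2, 0.52 with median-ratio scaling and 0.31 after the length correction. *Setdb1*, the methyltransferase that TRIM28 brings to DNA, measured 116 and 96.3 TPM in controls 1 and 2, against 195 and 183 TPM in KO-labelled libraries 1 and 2 (0.83 ± 0.19 on the log2 scale, limma adjusted p = 0.310). *Mphosph8*, the chromodomain subunit of HUSH, was at 297 and 232 TPM against 369 and 427 TPM (0.59 ± 0.23), and *Pphln1*, the periphilin subunit, at 29.2 and 36.7 TPM against 66.7 and 55.7 TPM (0.88 ± 0.24). The ratio of *Morc2a* to *Setdb1* overlapped between the groups, at 0.79 and 0.73 in the controls and 0.76 and 0.81 under the KO label. The ratio of *Morc2a* to *Mphosph8* did not overlap, at 0.31 and 0.30 in the controls and 0.40 and 0.35 under the KO label, nor did that of *Morc2a* to *Trim28*, at 0.21 and 0.14 against 0.32 and 0.32 (exact permutation p = 0.333 each, two-sided). That of *Setdb1* to *Trim28* did not overlap either, at 0.27 and 0.19 in the controls and 0.41 and 0.39 under the KO label.

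Of the 6 other H3K9 methyltransferases, 5 were higher in both KO-labelled libraries (all genes, 38.6%) and 3 at an unadjusted p under 0.05 (all genes, 10.7%). The median was 0.75, 0.48 without control 1, 1.02 without control 2, and 0.43 with either median-ratio scaling or the length correction. *Ehmt1*, which methylates H3K9 in euchromatin, measured 19.2 and 17.5 TPM in controls 1 and 2, against 42.9 and 43.8 TPM in KO-labelled libraries 1 and 2 (1.20 ± 0.23 on the log2 scale, limma adjusted p = 0.310). *Setdb2* went from 20.3 and 27.1 TPM to 43.4 and 36.4 TPM, and *Prdm9*, which marks recombination sites and is also one of the leptotene and zygotene markers, from 24.5 and 36.7 TPM to 76.3 and 56.4 TPM.

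**Figure D5:**
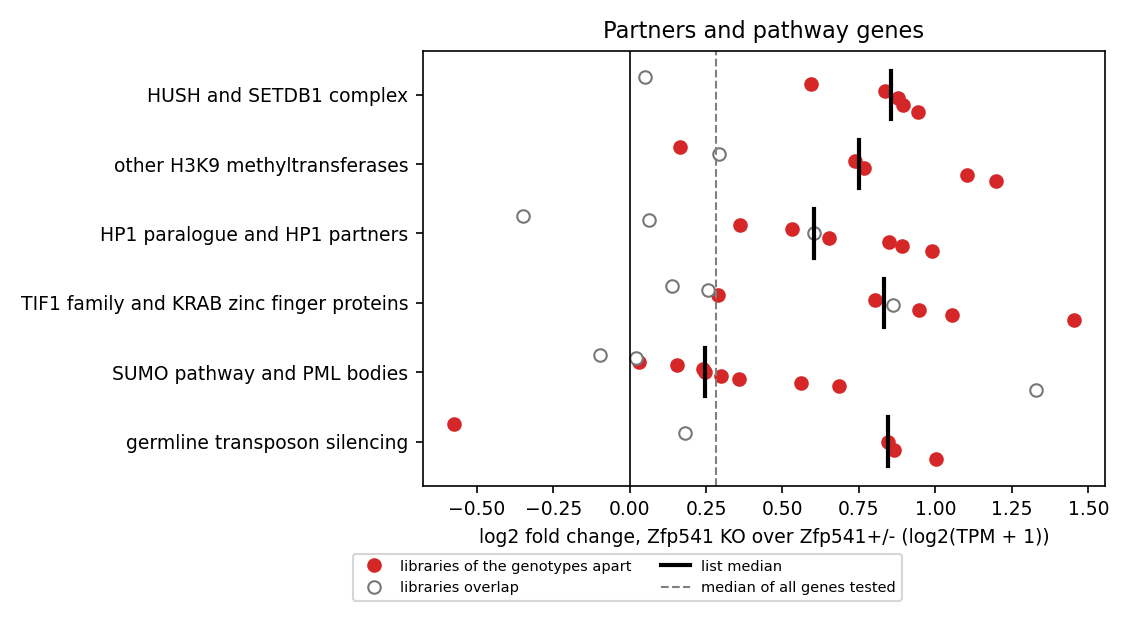
log2 fold change, KO-labelled libraries over *Zfp541*+/- on the log2(TPM + 1) scale, of each tested gene in the 6 partner lists. Red points are genes whose libraries do not overlap between the genotypes, open points those that do, black bars list medians, and the dashed line the median of all genes tested (0.28). The medians lie between 0.25 for the SUMO list and 0.86 for the HUSH and SETDB1 list.

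In the list of the third HP1 gene and HP1 partners, 6 of 9 genes were higher in both KO-labelled libraries (all genes, 38.6%) and 3 at an unadjusted p under 0.05 (all genes, 10.7%). The median was 0.60, 0.85 without control 1, 0.34 without control 2, 0.31 with median-ratio scaling and -0.06 after the length correction. *Cbx3*, which encodes HP1γ, measured 151 and 144 TPM in controls 1 and 2, against 263 and 286 TPM in KO-labelled libraries 1 and 2 (0.89 ± 0.18 on the log2 scale, limma adjusted p = 0.310). *Cbx1* was at 0.88 and 0.79 times *Cbx3* in the controls and 0.89 and 0.90 times under the KO label, with no overlap (exact permutation p = 0.333, two-sided). Against *Cbx5* it was at 2.77 and 5.60 times in the controls and 5.44 and 5.49 times under the KO label. The ratio of *Cbx1* to *Cbx5* overlapped between the groups (exact permutation p = 1, two-sided). *Pogz*, an HP1-binding zinc finger protein, and *Lbr*, the lamin B receptor that tethers HP1 to the nuclear envelope, had log2 fold changes of 0.85 ± 0.25 and 0.65 ± 0.22 (adjusted p = 0.319 and 0.331 from limma).

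Of the 8 TIF1 relatives of TRIM28 and KRAB zinc finger genes, 5 were higher in both KO-labelled libraries (all genes, 38.6%) and 2 at an unadjusted p under 0.05 (all genes, 10.7%). The median was 0.83, 1.36 without control 1 (all genes, 0.44), 0.16 without control 2 (all genes, 0.15) and 0.35 after the length correction. *Zfp57*, which keeps imprinted regions methylated through TRIM28, had the largest difference of these, from 4.70 and 3.91 TPM to 14.03 and 12.95 TPM (1.45 ± 0.35 on the log2 scale, limma adjusted p = 0.310). *Zfp568* went from 11.9 and 8.90 TPM to 21.9 and 23.0 TPM, and *Trim33*, a TIF1 family member, from 29.3 and 12.3 TPM to 36.8 and 38.6 TPM, where control 2 was the low library.

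In the SUMO and PML body list, which holds partners of MORC3 and the SUMO machinery that TRIM28 uses, the median was 0.25 beside 0.28 for all genes, 0.10 beside 0.44 without control 1 and 0.23 beside 0.15 without control 2. Of the 11 genes, 8 were higher in both KO-labelled libraries (all genes, 38.6%). *Pias1*, a SUMO ligase, had a log2 fold change of 0.68 ± 0.28 and *Uba2*, a subunit of the SUMO-activating enzyme, one of 0.36 ± 0.25 (adjusted p = 0.366 and 0.540 from limma).

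In the list of germline transposon silencing genes, where MORC1 is known to act, 5 of the 7 found reached a mean of 1 TPM. Of these, 3 were higher in both KO-labelled libraries (all genes, 38.6%), each with an unadjusted p under 0.05 (all genes, 10.7%), and 1 was lower in both (all genes, 12.1%). The median was 0.85, and 0.51 with median-ratio scaling and 0.40 after the length correction. The gene lower in both was *Mael*, named after its values were seen, at 1194 and 1039 TPM in the controls, against 719 and 778 TPM under the KO label. *Piwil2*, a PIWI protein, measured 288 and 299 TPM in controls 1 and 2, against 507 and 551 TPM in KO-labelled libraries 1 and 2. *Mov10l1*, the helicase of piRNA precursors, was at 195 and 284 TPM against 472 and 473 TPM, and *Tdrd9* at 182 and 144 TPM against 283 and 310 TPM. Their log2 fold changes were 0.85 ± 0.19, 1.00 ± 0.26 and 0.87 ± 0.21 (adjusted p = 0.310, 0.311 and 0.310 from limma), beside 0.21 for *Morc1*.

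The genes with the pattern most like each of the 8 over the 4 libraries were found by the Euclidean distance between centred log2(TPM + 1) values among the 9857 genes whose mean reached 10 TPM. With so few libraries many genes share any pattern, and the distances are a description. *Morc2a* was nearest to *Cisd2* and *Ppig* (distances of 0.028 each) and *Cbx1* to *Wasf3* (0.042) and *Galnt7* (0.049). *Morc2b* was nearest to *Slc9a8* (0.041) and *Dnajc28* (0.048), both also highest in control 1 and lowest in control 2, as the second of them shows at 21.2, 8.81, 12.3 and 14.4 TPM. *Morc3* was nearest to *Fkbp14* (0.020) and *Hacd3* (0.043), *Cbx5* to *Fam135a* (0.050) and *Zfp592* (0.053), *Trim28* to *Slc9a3r1* (0.041) and *Exosc10* (0.041), *Morc4* to *Caskin1* (0.032) and *Ccdc36* (0.035), and *Morc1* to *Pbdc1* (0.082) and *Usf1* (0.098).

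Promoter sequence was looked at because *Cbx1* had the largest difference here, *Trim28* the one nearest 0 and *Morc2b* the only one below 0. RefSeq entries were matched for 7 of the 8 genes, not for *Morc1*. The 250 bases before the start site are shown with CpG dinucleotides in capitals, for *Cbx1* at chr11:96788885-96789134 (forward strand), for *Trim28* at chr7:13023902-13024151 (forward strand) and for *Morc2b* at chr17:33139684-33139933 (reverse strand), all from RefSeq on GRCm38.p6.
Cbx1: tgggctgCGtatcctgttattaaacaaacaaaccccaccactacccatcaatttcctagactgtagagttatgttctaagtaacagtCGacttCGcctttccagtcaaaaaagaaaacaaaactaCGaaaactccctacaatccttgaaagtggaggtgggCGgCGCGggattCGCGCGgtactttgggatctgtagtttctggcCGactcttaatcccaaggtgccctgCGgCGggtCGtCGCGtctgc
Trim28: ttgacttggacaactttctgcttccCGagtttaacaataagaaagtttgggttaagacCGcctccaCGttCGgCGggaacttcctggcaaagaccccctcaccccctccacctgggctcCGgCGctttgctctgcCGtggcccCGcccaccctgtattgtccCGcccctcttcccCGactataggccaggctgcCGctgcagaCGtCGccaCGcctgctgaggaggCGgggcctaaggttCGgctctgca
Morc2b: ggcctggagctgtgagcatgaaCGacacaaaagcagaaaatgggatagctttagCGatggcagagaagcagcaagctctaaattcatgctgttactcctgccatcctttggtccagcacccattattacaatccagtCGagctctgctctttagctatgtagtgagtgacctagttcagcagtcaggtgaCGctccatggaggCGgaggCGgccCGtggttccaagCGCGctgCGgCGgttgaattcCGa
The genes shown were picked after their values were seen. *Cbx1* had 16 CpG in this window, *Trim28* 17 and *Morc2b* 12, where the median over 32851 promoters was 6. Of all promoters, 76.5%, 78.3% and 68.5% had no more CpG than these windows. A second RefSeq start of *Morc2b*, with its window at chr17:33148750-33148999, had 0 CpG. The first *Morc2a* start had 39, in a window of which 246 bases lie in an exon of the GENCODE annotation. The other motifs searched, on both strands, were the E-box CACGTG (in 6.0% of promoters), the cAMP response element TGACGTCA (1.5%), CCAAT (33.8%), the GC box GGGCGG (32.7%) and TATAA (22.8%). Of these, *Cbx1* held 1 GC box, *Trim28* 2 and *Morc2b* 0, and none of the 3 windows shown held the others (0 each). The window of the second *Morc2b* start held 1 TATAA. A match or its absence describes these letters in this window.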

How the data were processed

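The authors trimmed single-end 75 nt reads with Trim Galore 0.5.0 (cutadapt 1.16), aligned them to UCSC mm10 with STAR 2.6.0a and estimated expression with RSEM 1.3.1, as the submitters' processing notes and the methods give it, and they deposited 1 TPM value per gene and library. Depth is unknown, so no counting error is given. The 14512 of 24411 genes whose average reached 1 TPM were fitted by genotype on log2(TPM + 1) with limma 3.58.1 in R 4.3.3, using its trended variance, and p-values were adjusted by Benjamini-Hochberg over all of them. Fold changes on this scale understate those of low genes. Transcript sequences and positions came from GENCODE M21, and transcript lengths were found for 99.0% of the genes tested. Coding sequences were aligned with Biopython 1.88.

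The 8 genes and the lists were chosen with earlier results of these data known. Genes named from a list were up to 3 with the smallest unadjusted p, besides *Setdb1*, *Mphosph8* and *Cbx3*. One gene that this rule names is not reported here. For each of the 8 genes, the 2 nearest in pattern were also named. Same-numbered libraries were not used as pairs. Alternatives covered the pseudocount, filter, scaling, trend, length, a replicate block and leaving out each library. Transposon RNA and ChIP-seq were not analysed here. *Spocd1*, 1 gene of the germline transposon list, was not found by symbol, and 27 rows named as dates were left unnamed. The other marker lists summed, in controls 1 and 2 and then the libraries labelled *Zfp541* KO 1 and 2, to 458, 1075, 806 and 645 TPM for spermatogonia, 143, 53.0, 48.6 and 54.4 TPM for round spermatids, 12.3, 18.7, 24.7 and 18.5 TPM for myoid cells, 64.1, 18.7, 27.8 and 249 TPM for red blood cells, and 4519, 7360, 8934 and 8945 TPM for meiotic germ cells.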

Additional observations from a re-analysis of the deposited data

How the results depend on the processing

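*Cbx1* and *Morc2a* kept higher values in the KO-labelled libraries under all 15 alternatives, from 0.66 to 1.10 and from 0.37 to 1.07 on the log2 scale, and *Morc4* under all 14 that kept it. The filters, the trend and the replicate blocks cannot move a fold change, only its error. Only the pseudocounts, scalings, length correction and omitted libraries therefore bear on the sign. With the replicate block, 0 of the 8 genes passed an FDR of 0.05, as 0 of all genes did. At an unadjusted p under 0.05, 2 of the 8 were higher, beside 656 of the 14512 genes tested. The correlation of deviations between same-numbered libraries was -0.16, and with the numbers crossed, an alternative added after this was seen, 0 of the 8 passed, beside 7 genes higher and 80 lower of all tested. With the length correction, alone or with the replicate block, 1 gene, *Cbx1*, was higher at an unadjusted p under 0.05, and *Morc2a* was not. Of the 14370 genes with a length, 585 were higher at that p with the correction alone and 207 with the block added. With median-ratio scaling, 1 gene, *Trim28*, was lower in both KO-labelled libraries than in both controls, and 2 were higher in both. The shares over all genes in that setting were not counted. Leaving out 1 control leaves a single control that is assumed to vary like the KO-labelled pair. With 1 library left out, the number past an FDR of 0.05 ranged from 0 to 4 (4 without control 1, 3 without control 2), where 5610 higher and 1375 lower, and 2248 higher and 1875 lower, of all genes passed. The number higher at an unadjusted p under 0.05 ranged from 0 to 5 and the number lower from 0 to 1. With 1 library left out, 1 genotype has a single library, so not overlapping is an easier criterion than with all 4. On it, the number whose remaining KO-labelled libraries lay above every remaining control ranged from 3 to 6. The number below ranged from 0 to 3. No share over all genes was counted for this criterion. Neither these counts nor those past an FDR of 0.05 with 1 library left out are read as particular to the 8 genes.

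Signs changed for other genes. *Morc1* was at -0.096 with median-ratio scaling and -0.14 after correcting for length, block or not, and ranged from -0.18 to 0.60 with 1 library left out. *Trim28* was at -0.32 and -0.26 in the same settings and ranged from -0.075 to 0.11. *Morc3* was at -0.019 and *Cbx5* at -0.17 after correcting for length, block or not, and they ranged from -0.093 to 0.80 and from -0.086 to 1.11. *Morc2b* ranged from -0.66 to 0.49 and was at 0.41 when summed with *Morc2a*. The HP1 partner list was at -0.060 after correcting for length, block or not, and the SUMO list at -0.087 with median-ratio scaling. Both of these settings also moved the median of all genes to about 0, and the cause was not tested further.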
